A study of Mus musculus with 18 samples.

Results

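The 10 genes described here act in meiosis: Smc1b, Stag3 and Rec8 encode meiotic cohesin subunits, Hormad1 and Hormad2 encode proteins of the chromosome axis, Spo11 and Dmc1 act in break formation and strand exchange, and Msh4, Msh5 and Mlh3 act in crossover formation. They were taken by gene symbol, and all 10 were found among the 30172 genes measured in 18 whole-ovary libraries. The study fed C57BL/6J wild-type dams either normal chow or a diet with 3% methionine, to raise their homocysteine. Per the labels the diet began 4 weeks before mating and was kept up while the dams were pregnant and nursing; the study's methods describe another feeding schedule. Their daughters, which received no treatment of their own, form the F1-Control and F1-HHcy groups. Ovaries came from pups of 3, 7 or 21 days after birth (Pd3, Pd7, Pd21), with 3 libraries of each diet on each day. The labels give Pd3 and Pd7 as batch 1 and Pd21 as batch 2, so for any step to Pd21 age and batch cannot be told apart. They do not say whether a library is 1 pup or a pool, nor whether replicates come from separate litters, so p-values measure only the spread between these libraries. The comparison of diets asks whether the mother's diet was followed by other levels of these genes in the daughters' ovaries, and the comparison of days asks how the levels run as follicles form and grow.

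In female mice, recombination takes place before birth: breaks are made and repaired, homologous chromosomes pair along an axis of cohesin and HORMA-domain proteins, and oocytes then arrest for a long time. Cohesin holds sister chromatids together through that arrest, and meiotic subunits replace their mitotic counterparts in oocytes. Early postnatal ovaries therefore hold oocytes that have passed the stage at which most of these genes act, enclosed in primordial follicles or in the first follicles to grow.

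The values are FPKM (fragment numbers divided by gene length and library total), so levels can be set against each other between genes as far as the lengths used hold. The lengths behind the values differ from the summed GENCODE exons, which are 0.9 to 1.86 times as long for the 10 genes, so a level can shift by that much against another gene's. From the steps between values, whole fragment numbers were recovered, with library totals of 33630641 to 39399281 fragments. A bulk library does not separate cell types, and fewer oocytes cannot be told apart from less RNA of a gene per oocyte. Germ cell and granulosa markers were present in every library, with summed levels of at least 29.4 FPKM for 3 germ cell markers and 173 FPKM for 6 granulosa markers. The libraries differed in other cells too: the summed level of 3 erythroid markers was 3122 to 8954 FPKM in F1-Control and 684 to 953 FPKM in F1-HHcy at Pd3, and that of 4 oviduct and multiciliated markers was 65.6 to 432 FPKM in F1-Control and 2.28 to 4.17 FPKM in F1-HHcy at Pd21. At Pd3 the stroma (314.5 to 438 against 591 to 754 FPKM), endothelium (23.4 to 31.2 against 44.3 to 53.1 FPKM) and granulosa sums (173 to 188 against 229 to 449.5 FPKM) also lay higher in every F1-HHcy library, as did 4 of 4, 2 of 3 and 4 of 6 of their markers. F1-HHcy Pd3 replicate 3, F1-Control Pd7 replicate 2 and F1-HHcy Pd21 replicate 1 stood furthest from the other libraries of their groups, and results that change without one of them are given both ways.

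Smc1b had the highest group mean of the 10 genes in the ovaries of both diets at Pd3 and Pd7. At Pd3 it made up 52.6 to 57.7% of their summed FPKM in F1-Control. The sum itself was 116 ± 2.75 FPKM (SD, n = 3) in F1-Control Pd3 ovaries and 55.5 ± 22.8 FPKM under the maternal diet. It was 56.8 ± 12.6 against 20.3 ± 0.317 FPKM at Pd7, while Pd21 ovaries gave 14.9 ± 3.31 and 14.0 ± 3.92 FPKM. The diets were separated at Pd3 and Pd7, where every F1-HHcy sum lay below every F1-Control sum, and overlapped at Pd21. The mean of all 10 genes was lower in F1-HHcy at Pd3, of 7 at Pd7 and of 2 at Pd21. Among genes that passed the filter on low values, 4 of 9 at Pd3 and 3 of 7 at Pd7 were lower in every F1-HHcy library, where 16.1% and 19.5% of all genes tested were. The median difference was -0.45 against -0.03 over all genes tested at Pd3, and -0.43 against -0.0015 at Pd7.

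**Figure D1:**
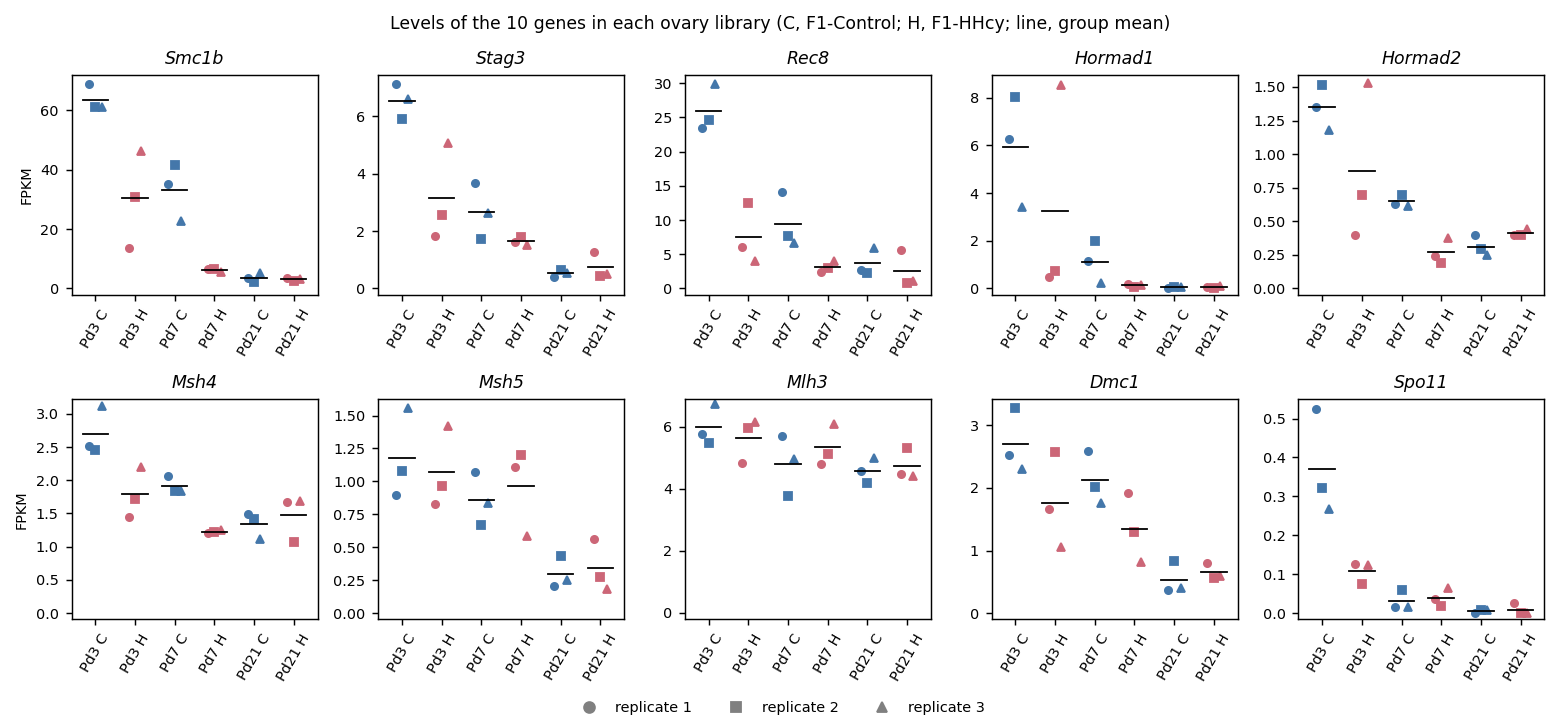
FPKM (linear axis) of each of the 10 genes in each library, by day and diet; blue, F1-Control, red, F1-HHcy, symbols, replicates, line, group mean. Smc1b runs from 61.0 to 68.7 FPKM in F1-Control at Pd3 down to 5.597 to 6.53 in F1-HHcy at Pd7, while Mlh3 stays between 3.76 and 6.74 FPKM in all 18 libraries.

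Smc1b lies on chromosome 15 (GRCm38, chr15:85064689-85131964, minus strand), Stag3 on chromosome 5 (chr5:138280240-138312393, plus strand) and Rec8 on chromosome 14 (chr14:55618037-55625395, plus strand). Hormad1 lies at chr3:95559677-95587671 (plus strand), Hormad2 at chr11:4345814-4441105 (minus strand), Spo11 at chr2:172977700-172993576 (plus strand) and Dmc1 at chr15:79561497-79605109 (minus strand). Msh4 lies at chr3:153857149-153906138, Msh5 at chr17:35028605-35046745 and Mlh3 at chr12:85234520-85270599, all on the minus strand. All 10 are protein-coding in GENCODE. The values count fragments over exons of a whole gene. Msh4 shares 125 exon bases with Gm24395, a snoRNA gene on the opposite strand, and the other 9 genes share no exon base with another gene.

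Sequence before the start of 4 genes is shown, for Smc1b and Rec8, which were called between diets, for Hormad1, which holds both motifs searched, and for Mlh3, which was called in no comparison. Each runs 5′ to 3′ on the strand of the gene, is taken from the RefSeq promoter table (GRCm38.p6) and stops where a GENCODE exon of the gene begins. Capitals mark GCGGGAA or its reverse complement TTCCCGC, the core that E2F factors bind, and CACGTG, an E-box; the latter reads the same on both strands, and the motifs do not overlap.
Smc1b, chr15:85131965-85132207, minus strand: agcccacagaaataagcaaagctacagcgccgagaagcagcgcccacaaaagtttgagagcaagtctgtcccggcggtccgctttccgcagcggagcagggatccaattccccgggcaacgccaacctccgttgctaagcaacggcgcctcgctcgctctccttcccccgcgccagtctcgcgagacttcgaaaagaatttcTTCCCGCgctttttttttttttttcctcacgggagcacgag
Rec8, chr14:55617916-55618036, plus strand: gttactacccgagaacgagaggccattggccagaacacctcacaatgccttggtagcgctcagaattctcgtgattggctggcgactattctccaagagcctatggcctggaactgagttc
Hormad1, chr3:95559427-95559676, plus strand: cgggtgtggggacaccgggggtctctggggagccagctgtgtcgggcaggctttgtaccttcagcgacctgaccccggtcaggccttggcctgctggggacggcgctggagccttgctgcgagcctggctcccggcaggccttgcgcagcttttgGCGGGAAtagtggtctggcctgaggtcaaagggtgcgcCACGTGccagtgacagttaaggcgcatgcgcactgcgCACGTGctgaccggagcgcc
Mlh3, chr12:85270600-85270849, minus strand: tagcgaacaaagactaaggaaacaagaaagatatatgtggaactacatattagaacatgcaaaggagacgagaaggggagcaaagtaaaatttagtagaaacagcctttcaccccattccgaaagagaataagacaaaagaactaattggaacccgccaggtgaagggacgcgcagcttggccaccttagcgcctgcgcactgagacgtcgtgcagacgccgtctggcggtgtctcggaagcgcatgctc
Over the 250 bases before each start, GCGGGAA stood in 3 of the 9 genes with an entry (Smc1b, Hormad1 and Msh5), and in 4.38% of 27025 genes in the table. CACGTG stood in 2 of the 9 (Stag3 and Hormad1), and in 6.86% of all genes. In Smc1b the E2F-type letters begin 48 bases before the start, and Hormad1 holds both motifs, with CACGTG at 2 places. Stag3 holds CACGTG, beginning 170 bases before its start, and no letters of Rec8, Hormad2, Msh4, Mlh3 or Dmc1 matched in this window. Spo11 has no entry. The counts take in letters past the first base of a GENCODE exon of the gene, where the matches of Msh5 and Stag3 lie. These are matches of letters only.

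Smc1b, the meiotic SMC subunit that pairs with Smc3 in cohesin, measured 68.7, 61.0 and 61.2 FPKM in F1-Control at Pd3, and 13.65, 30.9 and 46.4 FPKM in F1-HHcy. At Pd7 it measured 35.1, 41.5 and 22.9 FPKM in F1-Control, against 6.44, 6.53 and 5.597 FPKM in F1-HHcy. No F1-HHcy library reached a F1-Control library of its day, and at Pd7 the F1-HHcy libraries lay within 1 FPKM of each other. At Pd21 the diets overlapped, with 3.42, 2.29 and 5.04 FPKM in F1-Control and 3.62, 2.39 and 3.25 FPKM in F1-HHcy. In the order of group means, F1-Control Pd7 (33.1 ± 9.46 FPKM) and F1-HHcy Pd3 (30.3 ± 16.4 FPKM) were neighbours whose libraries overlapped.

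Smc1b fell with the maternal diet at Pd7. The mean was 5.35-fold higher in F1-Control, and the difference on the log2(FPKM + 1) scale was -2.21 (SE 0.205, adjusted p = 0.00113, limma with Benjamini-Hochberg adjustment over all genes tested). At Pd3 the difference was -1.20 (SE 0.374, 95% interval -2.07 to -0.33, adjusted p = 0.122) and did not pass. At Pd21 it was -0.13 (95% interval -0.70 to 0.43, adjusted p = 1). A test of the change in the diet effect from Pd7 to Pd21 passed for Smc1b (difference 2.08, SE 0.453, adjusted p = 0.0129, limma on all 18 libraries), the only one of 9 genes tested, where 0.986% of 14607 genes passed in that direction. Without F1-Control Pd21 replicate 1 the adjusted p was 0.0555. From Pd3 to Pd7 the diet effect on Smc1b changed by -1.01 (adjusted p = 0.344).

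Rec8, the meiotic kleisin that closes the cohesin ring and is cleaved at anaphase, measured 23.4, 24.6 and 29.8 FPKM in F1-Control at Pd3, and 5.99, 12.5 and 4.01 FPKM in F1-HHcy. At Pd7 it measured 14.0, 7.69 and 6.66 FPKM in F1-Control, and 2.34, 3.02 and 4.01 FPKM in F1-HHcy. The diets did not overlap on either day. Replicate 3, the highest F1-HHcy library at Pd3 for 7 of the 10 genes, was the lowest for Rec8 and for Dmc1. At Pd21 Rec8 was spread widely within each diet, with 2.7, 2.27 and 5.95 FPKM in F1-Control and 5.66, 0.808 and 1.12 FPKM in F1-HHcy.

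Rec8 fell with the diet at both early ages. At Pd3 the difference was -1.78 (SE 0.329, adjusted p = 0.0392, limma), a mean 3.45-fold higher in F1-Control. It was the 1 gene that passed of the 9 tested at Pd3, where 1.43% of 13277 genes were called lower and 1.64% higher. The erythroid, stroma, endothelium and granulosa sums given above moved with this comparison too. The sum of 8 primordial and growing oocyte markers was 809 to 1080 FPKM in F1-Control and 1295 to 1920 FPKM in F1-HHcy. Of these 8, 3 were higher and 2 lower in every F1-HHcy library. Macrophage sums (8.635 to 11.75 against 11.94 to 15.3 FPKM) and adipocyte sums (0.119 to 0.257 against 0.379 to 3.34 FPKM) were also higher in F1-HHcy. The part of all these sums in it was not tested. Under the criterion of the study's volcano plots (unadjusted p under 0.05, difference above 0.58 in size) 3 of the 9 were lower, and 4.74% of all genes tested. With 2 F1-HHcy libraries the count of 1 ranged from 0, without replicate 1, to 6, without replicate 3 (4 of them genes that reached 1 FPKM under both diets), and it was 0 without any 1 of the F1-Control libraries. At Pd7 the difference was -1.30 (SE 0.257, adjusted p = 0.0135), a mean 3.03-fold higher in F1-Control. Without F1-HHcy Pd7 replicate 1 its adjusted p was 0.0519. Rec8 and Smc1b were the 2 of 7 genes tested that passed at Pd7, where 5.98% of 13299 genes were called lower and 5.88% higher. Marker sums of other cells moved with this comparison: theca, 215.5 to 445 FPKM in F1-Control and 1129 to 1177 FPKM in F1-HHcy; granulosa, 212 to 451 and 455 to 736; erythroid cells, 795 to 4518 and 245.5 to 426; adipocytes, 1.14 to 3.01 and 5.46 to 7.12. Single markers were higher in every F1-HHcy library for 4 of 4 theca markers, 1 of 6 granulosa markers and 1 of 2 adipocyte markers. They were lower in every F1-HHcy library for 3 of 3 erythroid markers and 1 of 6 granulosa markers. Their part in it was not tested. At Pd21 the difference for Rec8 was -0.57 (SE 0.496, 95% interval -1.71 to 0.56, adjusted p = 1).

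Stag3, the SA-type subunit that stabilises meiotic cohesin, measured 7.12, 5.92 and 6.62 FPKM in F1-Control at Pd3, and 1.82, 2.58 and 5.09 FPKM in F1-HHcy. The diets did not overlap. The difference of -0.93 (SE 0.267, 95% interval -1.56 to -0.31) had an adjusted p of 0.103 in limma. At Pd7 the values were 3.67, 1.71 and 2.63 FPKM in F1-Control and 1.61, 1.81 and 1.502 FPKM in F1-HHcy, which overlapped (difference -0.44, SE 0.203, adjusted p = 0.167). At Pd21 Stag3 lay between 0.385 and 1.26 FPKM in all 6 libraries and was not tested, since fewer than 3 of them reached 1 FPKM.

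**Figure D2:**
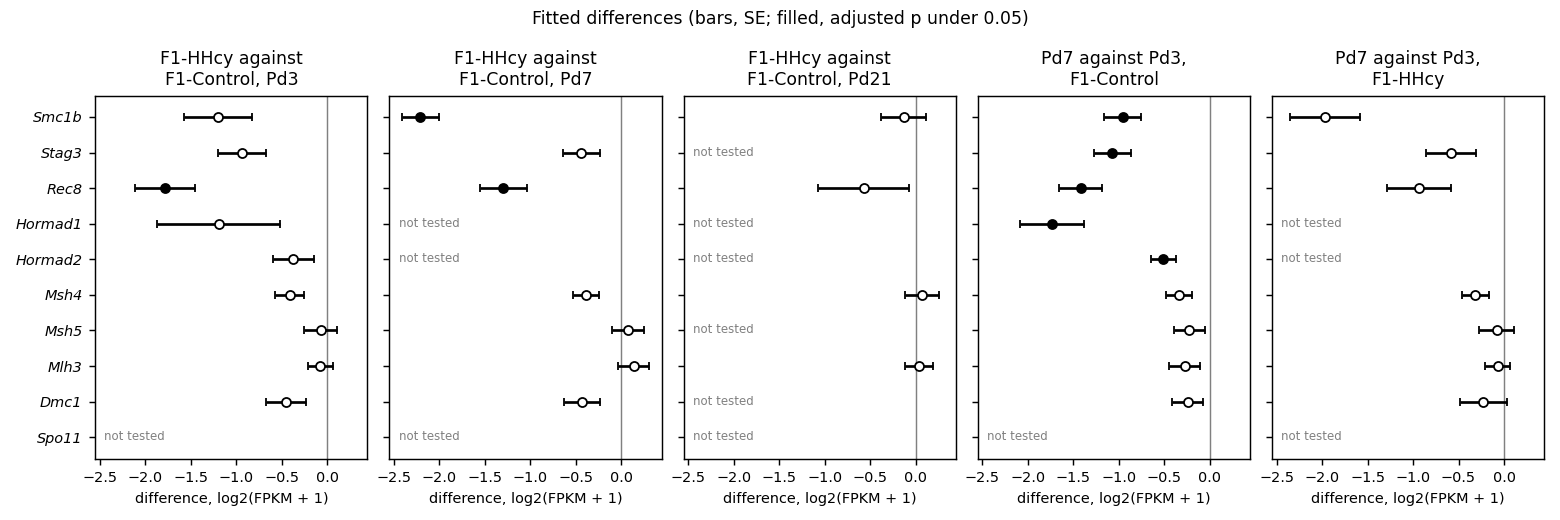
Fitted differences of log2(FPKM + 1) for the 10 genes in 5 comparisons, with the SE as bars; filled points passed an adjusted p of 0.05, and genes under the filter are marked as not tested. Filled points are Rec8 at Pd3, Smc1b and Rec8 at Pd7, and 5 genes for Pd7 against Pd3 in F1-Control, all below 0.

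Of the axis genes, Hormad1 separated the F1-HHcy libraries at Pd3 from each other. It measured 6.28, 8.03 and 3.42 FPKM in F1-Control, but 0.474, 0.741 and 8.55 FPKM in F1-HHcy. In fragments, replicates 1 and 2 held 33 and 51 and replicate 3 held 566, more than any F1-Control library. Hormad2 showed the same order, with 1.35, 1.52 and 1.18 FPKM in F1-Control and 0.395, 0.699 and 1.53 FPKM in F1-HHcy. Neither passed at Pd3 (Hormad1 difference -1.19, SE 0.675, adjusted p = 0.338; Hormad2 -0.37, SE 0.229, adjusted p = 0.378, limma). Without F1-HHcy replicate 3, Smc1b, Stag3, Rec8 and Msh4 passed. Hormad1 and Hormad2 were called there too, but reached 1 FPKM in F1-Control alone, so that to pass the filter they had to differ.

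At Pd7 the axis genes were lower in every F1-HHcy library than in any F1-Control library, at levels too low for the test. Hormad1 measured 1.15, 2.00 and 0.213 FPKM in F1-Control (15 to 136 fragments) and 0.198, 0.0619 and 0.126 FPKM in F1-HHcy (4 to 13 fragments). Hormad2 measured 0.632, 0.699 and 0.616 FPKM in F1-Control (63 to 69 fragments) and 0.241, 0.192 and 0.377 FPKM in F1-HHcy (18 to 39 fragments). In a fit of the recovered fragments (limma-voom), the differences were -2.67 (SE 1.03, adjusted p = 0.117) for Hormad1 and -1.29 (SE 0.415, adjusted p = 0.075) for Hormad2, and neither passed. At Pd21 Hormad1 gave 0 to 8 fragments per library. Hormad2 at Pd21 ran the other way, with 0.395, 0.292 and 0.247 FPKM in F1-Control and 0.397, 0.399 and 0.445 FPKM in F1-HHcy (27 to 49 fragments, difference 0.43, SE 0.435, adjusted p = 0.999, limma-voom).

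Spo11, the topoisomerase-like protein that makes meiotic breaks, was the rarest of the 10 genes and reached 1 FPKM in no library. It gave 61, 38 and 31 fragments in F1-Control at Pd3 and 15, 9 and 14 in F1-HHcy, with no overlap (0.370 ± 0.135 against 0.108 ± 0.0278 FPKM, SD, n = 3). The limma-voom difference was -1.71 (SE 0.536, adjusted p = 0.130). At Pd7 it gave 2 to 8 fragments in all 6 libraries and at Pd21 0 to 3, so that no diet difference was detectable at this depth. Dmc1, the meiotic recombinase that invades the homologous chromosome, measured 2.53, 3.27 and 2.31 FPKM in F1-Control at Pd3 and 1.66, 2.57 and 1.05 FPKM in F1-HHcy. The diets overlapped, also at Pd7, where it measured 2.59, 2.02 and 1.77 FPKM in F1-Control and 1.92, 1.30 and 0.812 FPKM in F1-HHcy. Its differences of -0.45 (SE 0.222, adjusted p = 0.274) and -0.43 (SE 0.201, adjusted p = 0.172) did not pass in limma.

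Msh4 and Msh5 encode the partners of a complex that stabilises crossover intermediates, and Msh4 had the higher mean in every group. Msh4 measured 2.51, 2.46 and 3.12 FPKM in F1-Control at Pd3 and 1.44, 1.72 and 2.20 FPKM in F1-HHcy. At Pd7 it measured 2.07, 1.84 and 1.84 FPKM in F1-Control and 1.21, 1.22 and 1.24 FPKM in F1-HHcy. The diets did not overlap on either day, but the differences of -0.41 (SE 0.157, adjusted p = 0.182) and -0.39 (SE 0.141, adjusted p = 0.0966) did not pass in limma. Msh5 overlapped between diets on all 3 days, with 0.898 to 1.56 FPKM in F1-Control and 0.830 to 1.42 FPKM in F1-HHcy at Pd3 (difference -0.07, 95% interval -0.49 to 0.35). At Pd7 it lay between 0.672 and 1.07 FPKM in F1-Control and between 0.584 and 1.20 FPKM in F1-HHcy (difference 0.07, 95% interval -0.33 to 0.47).

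Mlh3, a MutL-type endonuclease subunit that is also found in dividing cells, showed the smallest fold range of group means among the 10 genes. Its group means lay between 4.58 and 5.99 FPKM, and the diets overlapped on all 3 days. The diet differences were -0.07 (95% interval -0.39 to 0.24) at Pd3, 0.14 (95% interval -0.25 to 0.52) at Pd7 and 0.04 (95% interval -0.32 to 0.39) at Pd21. By Pd21 Mlh3 had the highest mean of the 10 genes in both diets, a place that Smc1b held at Pd3.

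Each F1-HHcy library can be set against the F1-Control mean of its day. At Pd3, replicate 1 was the lowest of the F1-HHcy libraries for Smc1b, Stag3, Hormad1, Hormad2, Msh4, Msh5 and Mlh3, and replicate 3 was the highest for the same 7 genes. Amh, made by granulosa cells of growing follicles, ran against this order, with 99.7, 35.2 and 9.72 FPKM in replicates 1, 2 and 3, and 1.65 to 2.51 FPKM in F1-Control. Cyp17a1, a steroidogenic enzyme of theca cells, measured 43.3, 1.06 and 0.552 FPKM in those F1-HHcy libraries and 0.576 to 0.787 FPKM in F1-Control. Whether the stage or cell make-up of these ovaries had a part in the values was not tested.

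**Figure D3:**
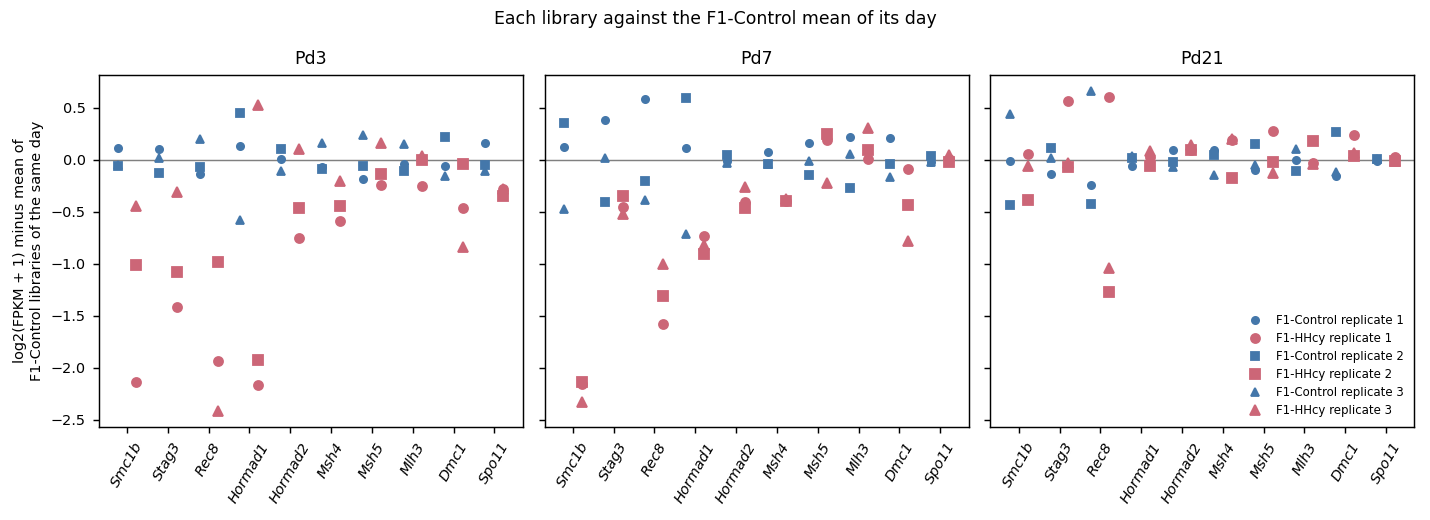
Log2(FPKM + 1) of each library minus the mean of the F1-Control libraries of the same day, for the 10 genes at Pd3, Pd7 and Pd21; blue, F1-Control, red, F1-HHcy, symbols, replicates. At Pd3 F1-HHcy replicate 3 lies above the F1-Control mean for Hormad1 and is the lowest for Rec8, whereas at Pd7 the 3 F1-HHcy libraries lie close together for Smc1b.

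In F1-Control ovaries 5 of the 9 genes tested were called lower at Pd7 than at Pd3, where 7.59% of 13336 genes were called lower and 6.90% higher. The differences on the log2(FPKM + 1) scale in limma were -1.42 for Rec8 (SE 0.237, adjusted p = 0.00671), -1.07 for Stag3 (SE 0.203, adjusted p = 0.0108) and -1.74 for Hormad1 (SE 0.3499, adjusted p = 0.0138). They were -0.96 for Smc1b (SE 0.199, adjusted p = 0.0158) and -0.51 for Hormad2 (SE 0.139). Hormad2 reached 1 FPKM at Pd3 alone, so that to pass the filter it had to differ, and its call was lost with median-ratio scaling; the other 4 reached 1 FPKM in libraries of both days. Msh4, Msh5, Mlh3 and Dmc1 had differences of -0.34, -0.22, -0.28 and -0.24, with adjusted p of 0.146 to 0.388. The libraries of both days did not overlap for 6 of the 9 genes, where 22.9% of all genes tested were lower in every Pd7 library. Hormad2 is among the 6, and nothing is read from its place there, since it had to differ. The median over the 9 genes was -0.51, which is the value of Hormad2 itself, and over all genes tested -0.07. The count was 1 without F1-Control Pd3 replicate 1, and 2 without F1-Control Pd3 replicate 2; Rec8 passed in each of these fits. Spo11 gave 31 to 61 fragments at Pd3 and 2 to 7 at Pd7, and is given as values only.

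In F1-HHcy ovaries none of the 7 genes tested, and 0 of 13257 genes in all, passed for Pd7 against Pd3 in limma, although 3119 had an unadjusted p under 0.05. All genes tested were called at a rate of 0.00% in each direction. Under the volcano criterion 2 of the 7 were lower, and 5.36% of all genes tested, and 4 of the 7 were lower in every Pd7 library, against 16.1% of all. Limma-voom also called 0 of the 9 genes it tested. The difference for Smc1b was -1.97 (SE 0.383, 95% interval -2.87 to -1.07, adjusted p = 0.0961) and for Rec8 -0.94 (SE 0.352, adjusted p = 0.174). Without F1-HHcy Pd3 replicate 1, Smc1b passed. The 2 comparisons of days share no library, and whether their sizes differed is the same test as the change of the diet effect from Pd3 to Pd7, which 0 of 9 genes passed and 0.411% of 14607 genes in either direction.

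At Pd21 the levels lay lower still. In F1-Control every Pd21 library was below every Pd3 library for all 10 genes. Of these, 8 passed the filter, and 30.8% of the 13721 genes that passed it were lower in that way. Stag3, Hormad1, Hormad2 and Dmc1, among the 8, reached 1 FPKM at Pd3 alone, so that to pass the filter they had to differ. The means were 17.8-fold lower for Smc1b, 12.5-fold for Stag3, 7.13-fold for Rec8 and 1.31-fold for Mlh3. At Pd21 none of the 4 genes tested passed between the diets (limma), where 2.23% of 13350 genes were called lower and 0.00% higher, and 914 genes had an unadjusted p under 0.05. None of the 4 was lower in every F1-HHcy library, where 8.61% of all genes tested were. The median difference of the 4 genes was -0.05. The change of the diet effect from Pd3 to Pd21 passed for 0 of 9 genes, and for 4.59% of all in either direction. Without F1-HHcy Pd3 replicate 3 it passed for Smc1b, Stag3, Hormad1 and Hormad2 (adjusted p of 0.00432 to 0.0339, limma). At Pd21 Hormad1 reached at most 0.106 FPKM, Hormad2 0.445 FPKM, and Stag3 0.649 FPKM in F1-Control and 1.257 FPKM in F1-HHcy. At such levels a diet effect can hardly show on the log2(FPKM + 1) scale. Nothing is read from the calls of Stag3, Hormad1 and Hormad2. Smc1b, 5.35-fold apart between the diets at Pd7, differed 1.16-fold in mean at Pd21.

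The germ cell markers Ddx4, Dazl and Mael moved along with these genes. Ddx4, an RNA helicase of all germ cells, measured 20.6 to 21.9 FPKM in F1-Control and 10.3 to 16.4 in F1-HHcy at Pd3, and 13.2 to 18.4 against 5.85 to 6.95 FPKM at Pd7. At Pd7 Ddx4 (-1.16, adjusted p = 0.00382) and Mael (-2.11, adjusted p = 0.00312) passed in limma, and Dazl (-0.58, adjusted p = 0.0638) did not. At Pd3 none of these markers passed, with adjusted p of 0.0926 to 0.281. Of 8 markers of primordial and growing oocytes, Gdf9, an oocyte growth factor (1.85, adjusted p = 0.0388), and Zp3 of the egg coat (1.15, adjusted p = 0.0486) passed as higher in F1-HHcy at Pd3. Zp2 (1.14, adjusted p = 0.051) and Ooep (0.52, adjusted p = 0.218) did not pass, and neither did Figla, Nobox, Sohlh1 and Lhx8, with differences of -1.27 to -0.21. At Pd7, 6 of the 8 passed as lower: the oocyte transcription factors Sohlh1 (-2.66), Figla (-2.17), Nobox (-1.18) and Lhx8 (-0.97), with Zp2 (-1.17) and Ooep (-0.90), with adjusted p of 0.00121 to 0.0416. Zp3 (-0.99, adjusted p = 0.0526) and Gdf9 (0.24, adjusted p = 0.665) did not pass. Sohlh1 and Figla thus had differences of the size of that of Smc1b.

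Divided by the geometric mean FPKM of the 3 markers, Smc1b gave 1.51, 1.21 and 1.57 in F1-Control and 0.921, 1.23 and 1.24 in F1-HHcy at Pd3, and overlapped. At Pd7 the ratio was 1.26, 1.29 and 1.20 in F1-Control and 0.592, 0.701 and 0.565 in F1-HHcy. Smc1b was the 1 gene of 10, and of the 7 that passed the filter, whose ratio was lower in every F1-HHcy library at Pd7. Of the 13299 genes that passed it, 0.647% had such a ratio. The ratio rests on 3 markers, which did not fall alike. At Pd7 the mean of Mael was 4.85-fold higher in F1-Control, near the 5.35-fold of Smc1b. For Ddx4 it was 2.43-fold and for Dazl 1.56-fold higher. On the log2(FPKM + 1) scale Sohlh1 (-2.66) and Figla (-2.17) fell about as far as Smc1b at Pd7 (-2.21). The other listed oocyte markers did not: Nobox, Lhx8, Zp2, Zp3 and Ooep had differences of -1.18 to -0.90, and Gdf9 of 0.24. Rec8, which had the other call at Pd7, had overlapping ratios of 0.365 ± 0.134 and 0.315 ± 0.0952 (SD, n = 3). The divisor itself fell, from 26.3 to 10.03 FPKM as group means, and 92.5% of all genes had a higher ratio in every F1-HHcy library at Pd7. Among the 7 genes that passed the filter Stag3, Msh4, Msh5 and Mlh3 did so, and nothing is read from these 4. At Pd3 and Pd21 the ratios of all 10 genes overlapped between the diets. This ratio was chosen after the data were seen. On the log2(FPKM + 1) scale Smc1b was also lower against the markers at Pd7 (difference of means -0.93), and 8 genes were higher, from which nothing is read either. No test was made of either measure.

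**Figure D4:**
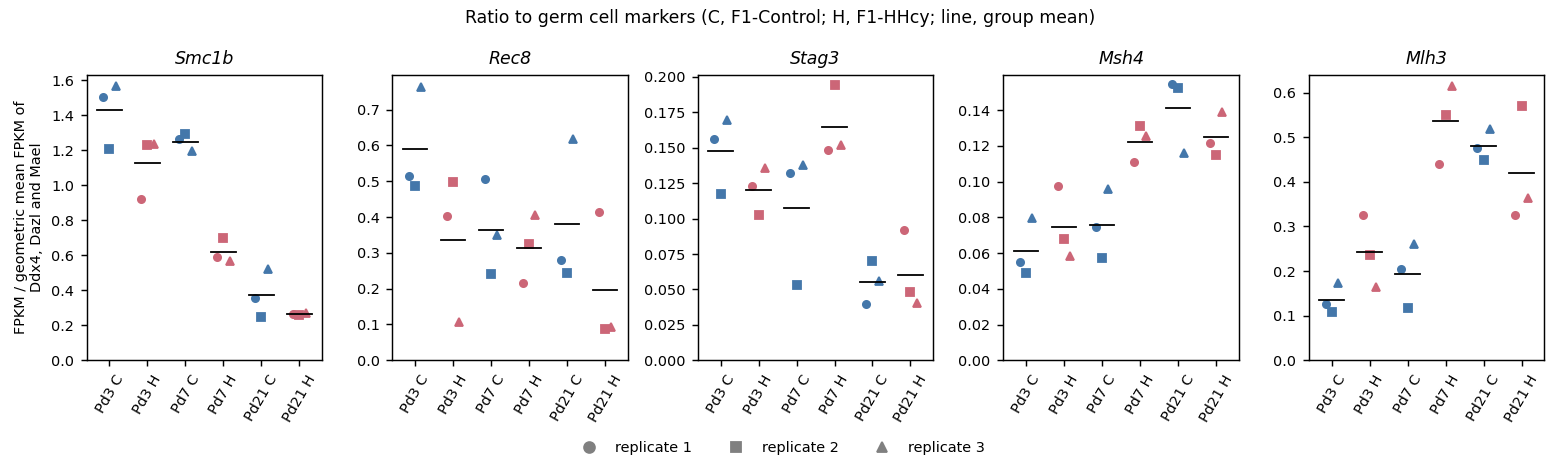
Ratio of the FPKM of 5 of the genes to the geometric mean FPKM of Ddx4, Dazl and Mael in each library (linear axis from 0), by day and diet; symbols, replicates, line, group mean. At Pd7 the F1-HHcy ratio of Smc1b lies between 0.565 and 0.701, below the F1-Control range of 1.20 to 1.29, whereas those of Stag3, Msh4 and Mlh3 lie above the F1-Control libraries, as for 92.5% of all genes.

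Other genes of the same processes followed in part. Of 17 genes of the cohesin core and its regulators, none passed between diets at Pd3 and at Pd21. Of 16 tested at Pd7 1 passed, where 5.88% of all genes were called higher: Mau2 of the cohesin loader, which was higher (0.59, SE 0.164, adjusted p = 0.0463). Rad21, the mitotic counterpart of Rec8 and the most abundant of the list, measured 54.1 ± 4.95 FPKM in F1-Control and 49.9 ± 5.96 FPKM in F1-HHcy at Pd7 (difference -0.12, adjusted p = 0.61). The list's median difference was 0.10 at Pd7, against -0.0015 over all genes tested.

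At Pd7 5.98% of all genes tested were called lower. Of 9 genes of break formation and the axis, 3 were tested and 2 were called lower: Zcwpw1, a reader of the histone marks left by Prdm9 (-1.22, SE 0.182, adjusted p = 0.00527), and Rec114, a Spo11 accessory protein. Rec114 reached 1 FPKM in F1-Control alone (1.27 to 2.22 FPKM, against 0.309 to 0.354 in F1-HHcy), so that to pass the filter it had to differ. Trip13, the ATPase that removes HORMA-domain proteins and the most abundant of those tested, had a difference of -0.30 (adjusted p = 0.205). Of 16 strand exchange genes, 13 were tested and 4 were lower at Pd7, led by Mnd1, a partner of Dmc1 in strand invasion (-1.14, SE 0.174, adjusted p = 0.0057). Swi5, the most abundant, had a difference of -0.28 (adjusted p = 0.298). Of 19 genes of crossover formation and mismatch repair, 14 were tested and 3 were called lower. Tex11, a meiotic crossover factor (1.76 to 4.59 against 0.472 to 0.706 FPKM), and Rnf212 (1.34 to 1.72 against 0.372 to 0.784 FPKM) also reached 1 FPKM in F1-Control alone. That leaves 1 call of that list, Mcm8, a helicase of recombination (-0.57, SE 0.145, adjusted p = 0.0354), named after its values were seen. Msh6, the most abundant mismatch repair gene, had a difference of -0.30 (adjusted p = 0.186).

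At Pd3 and at Pd21 no gene of these 3 lists passed between the diets in limma. Zcwpw1, at 23.9 ± 1.47 FPKM in F1-Control and 12.8 ± 5.47 FPKM in F1-HHcy at Pd3, had a difference of -0.93 (adjusted p = 0.104). Swi5 and Msh6 were the most abundant at Pd3, and Trip13 and Swi5 of the first 2 lists at Pd21. Between Pd3 and Pd7 in F1-Control, where 7.59% of all genes were called lower and 6.90% higher, 3 of 6 genes tested of the break and axis list and 3 of 15 of the crossover list were called lower, and 0 of 13 of the strand exchange list passed. Of 17 cohesin genes 2 were called lower and 1 higher, and 1 of the 2, Rad21l, reached 1 FPKM at Pd3 alone.

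The genes whose pattern was most like that of the 9 genes that reached 1 FPKM in at least 3 libraries were Sycp2l, Matk, Adamts16, Cnpy1 and Neil2. Their Pearson correlation with the mean z score of those 9 genes was 0.979 to 0.982 across the 18 libraries, among 14598 genes compared. The group means of Sycp2l, a gene of the synaptonemal complex protein 2 family, were 31.9 (Pd3), 14.5 (Pd7) and 3.46 FPKM (Pd21) in F1-Control, and 20.5, 7.41 and 3.81 FPKM in F1-HHcy. Among the 9 genes themselves, the correlation of each with the mean of the other 8 ran from 0.553 for Mlh3 to 0.979 for Stag3. These are descriptions over libraries that share a day and a batch, and libraries of 1 group are alike.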

How the data were processed

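RNA was read from whole ovaries with a poly-A stranded kit, 1 file per library. Per the labels, the submitters' processing notes name FastQC 0.11.9, Trimmomatic 0.39, STAR 2.7.9a, featureCounts 2.0.1, Subread and DESeq2 1.36.0, with the build GRCm38 (mm10). The deposited values are FPKM that the authors had already normalized to gene length and library total. Whether counting used strand is not given in the sources used here. Fragment numbers came out whole (tolerance 0.02 fragments plus a small term for rounding of large numbers) for 27291 genes, of 27294 with values above 0 in 3 libraries or more.

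Each comparison was fitted on its 6 libraries with limma 3.58.1 (R 4.3.3, empirical Bayes with trend) on log2(FPKM + 1), keeping genes that reached 1 FPKM in 3 libraries or more. P-values were adjusted by Benjamini-Hochberg over all genes tested and called under 0.05. A log2(FPKM + 1) difference understates the change of low genes. Changes of the diet effect between days were fitted on all 18 libraries. Limma-voom was run on recovered fragments, for genes with at least 10 in at least 3 libraries. The script was tested on simulated data. Intervals and fragment numbers cover no more than these libraries.

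The 10 genes and all lists were chosen with earlier results of these data known. All 10 are named. Of each companion list the 2 smallest adjusted p under 0.05 and the most abundant tested gene of each diet comparison are named, except a few items that are not reported here. Gene patterns were compared by Pearson correlation. Replicate numbers come from the titles. For Pd7 against Pd3 in F1-Control, libraries of the same number deviated together (correlations 0.119, 0.244 and 0.26 over 14607 genes), the only comparison where each was above 0.1, and the replicate block gave 5 calls there, as without it. Figures were drawn with matplotlib.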

Additional observations from a re-analysis of the deposited data

Results flagged for a closer look

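The effect of the maternal diet on Smc1b differed between Pd7 and Pd21 by 2.08 on the log2(FPKM + 1) scale (SE 0.453, adjusted p = 0.0129, limma on all 18 libraries). The F1-HHcy libraries were 3 of 3 below F1-Control at Pd7 and overlapped F1-Control at Pd21, and age and batch cannot be told apart in this step.

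Hormad2 was lower in every F1-HHcy library at Pd7 and higher in every F1-HHcy library at Pd21. Of all genes tested, 19.5% were lower in that way at Pd7 and 1.92% higher at Pd21. Hormad2 passed the filter in neither comparison, so these shares are over genes of higher level. The diet effects differed by 0.49 (SE 0.24, adjusted p = 0.274, limma), which did not pass. The values rest on 18 to 69 fragments per library. At Pd21 the nearest libraries were almost tied, at 0.3954 FPKM (43 fragments) in F1-Control and 0.397 FPKM (40 fragments) in F1-HHcy.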

How the results depend on the processing

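Counts of the 10 genes called depended on the setting. For the diet at Pd3 the count of 1 became 3 under the study's volcano criterion (unadjusted p under 0.05 and a log2 difference above 0.58 in size), 0 with no filter on low values and 3 with all 18 libraries in 1 fit, and ran from 0 to 6 when 1 library was left out. For the diet at Pd7 the count of 2 became 1 with no filter, 1 with all 18 libraries, and 1 to 2 when 1 library was left out. For Pd7 against Pd3 in F1-Control the count of 5 became 2 (Rec8 and Spo11) with no filter and 3 with all 18 libraries. It was 4 with median-ratio scaling and 4 under the volcano criterion, and 1 to 5 when 1 library was left out. Limma-voom also called Spo11 (adjusted p = 0.0148). Spo11 reached 10 fragments at Pd3 alone, so that to pass the limma-voom filter it had to differ. For Pd7 against Pd3 in F1-HHcy the count of 0 became 2 under the volcano criterion, 1 with all 18 libraries, and 0 to 1 when 1 library was left out. The change of the diet effect from Pd7 to Pd21 had 0 to 1 calls when 1 library was left out, and that from Pd3 to Pd21 had 1 with no filter, in place of 0, and 0 to 4 when 1 library was left out. Against the germ cell markers, the ratio without a pseudocount had 5 genes higher in every F1-HHcy library at Pd7, in place of 8, and 0 at Pd3, in place of 1. The cause was not tested. The call of Smc1b at Pd7 held in all 6 fits that left out 1 library (adjusted p at most 0.0154) and in all 6 other settings (at most 0.0371).

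The replicate block gave 0 calls for the diet at Pd3, in place of 1, and 0 of 6 libraries there correlated best with their own number. For the diet at Pd21 it was also 0 of 6, and for Pd7 against Pd3 in F1-Control it was 6 of 6. For the diet at Pd7 and for Pd7 against Pd3 in F1-HHcy it was 3 of 6, which does not settle whether the numbers pair libraries there. The block changed no other count of calls.

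Differences that changed sign were all small and not called (36 single-gene values, adjusted p at least 0.529). For the change from Pd3 to Pd7, Hormad1, Msh4 and Dmc1 gave -0.26, -0.023 and -0.0208 with a pseudocount of 0.1 FPKM, and Msh4 and Dmc1 gave -0.00309 and -0.00474 with median-ratio scaling. With 1 library left out, the diet difference ran from -0.16 to 0.013 for Msh5 and -0.13 to 0.017 for Mlh3 at Pd3, from -0.00203 to 0.22 for Msh5 and -0.000202 to 0.24 for Mlh3 at Pd7, and from -0.35 to 0.089 for Smc1b and -0.035 to 0.0899 for Mlh3 at Pd21. Msh5 ran from -0.17 to 0.066 between days in F1-HHcy. The change of the diet effect from Pd3 to Pd7 ran from -0.12 to 1.23 for Hormad1, -0.199 to 0.23 for Hormad2, -0.066 to 0.13 for Msh4 and -0.18 to 0.22 for Dmc1. That from Pd7 to Pd21 ran from -0.18 to 0.0603 for Msh5 and -0.21 to 0.037 for Mlh3, and that from Pd3 to Pd21 from -0.00841 to 0.23 for Msh5.

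Depth limits Spo11, Hormad1 and Hormad2, and 3 libraries against 3 allow no exact permutation p under 0.1.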

Other observations

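At Pd21 the libraries with the highest Rec8 level of each diet were also those with the highest Cyp17a1 level, a comparison chosen after the values were seen. F1-Control replicate 3 had 5.95 FPKM of Rec8 and 117 FPKM of Cyp17a1, and F1-HHcy replicate 1 had 5.66 FPKM of Rec8 and 102.6 FPKM of Cyp17a1. The other 4 libraries lay between 0.808 and 2.7 FPKM of Rec8 and between 3.33 and 16.5 FPKM of Cyp17a1. At Pd7 the highest levels of Rec8 and Cyp17a1 did not go together. F1-Control Pd7 replicate 3 had the highest Cyp17a1 (9.03 FPKM) and the lowest Rec8 level (6.66 FPKM) of its group. F1-HHcy Pd7 replicate 3 had the lowest Cyp17a1 (64.3 FPKM) and the highest Rec8 level (4.01 FPKM) of its group. No test was made of this.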
